A study of Mus musculus with 24 samples.

Results

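The DNA replication and S phase genes are 43 of the 55291 gene symbols in the count table of an RNA-seq experiment on mouse myoblasts. They were picked by name and function, with earlier results of these data known, and all 43 passed the filter on low counts. They fall into 7 roles: origin licensing (10 genes), helicase activation (6), polymerases and primase (7), clamp, clamp loader and lagging strand (8), nucleotide supply (5), chromatin and histone supply (4) and G1/S regulators (3). The cells were C2C12, an established mouse muscle line kept as proliferating myoblasts, transduced with lentivirus and held under puromycin as stable, uncloned populations. The 4 lines carried a scrambled shRNA (scr) or an shRNA against *Baf180* (gene symbol *Pbrm1*, a subunit of the PBAF form of the SWI/SNF chromatin remodelling complex), *Baf250a* (*Arid1a*, a subunit of the canonical BAF form) or *Brd9* (a subunit of the non-canonical form), so all lines, scr included, had been transduced and selected. Each line was cultured for 48 h with no added metal (NT), with 100 µM CuSO4 (Cu) or with 50 µM ZnSO4 (Zn), which gives 12 conditions with 2 independent biological replicates, 24 libraries in all. The treatment was taken from the sample titles, and the treatment entry in the characteristics of 16 of the 24 samples names another one. With the titles, both Zn libraries of each line were above its other 4 libraries for the metal-binding metallothioneins *Mt1* and *Mt2*, and both Cu libraries were above both untreated ones for *Mt2*. In scr cells *Mt2* was at 18.2 and 20.8 CPM untreated, 28.99 and 25.04 with Cu and 198 and 190.4 with Zn. These genes were looked at after the data were seen, as a check of the titles. The sample labels speak also of primary myoblasts and of knockdown by Lipofectamine, and the study's methods, which describe C2C12 cells and lentivirus, were followed here. Nothing in the labels or methods ties the replicates to separate transductions, so the p-values measure the spread between these cultures. The study lists 2 shRNAs against each subunit, and which of them the sequenced cells carried is not given. Loss of a subunit and other properties of its line or shRNA cannot be told apart.

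Before S phase, the origin recognition complex, Cdc6 and Cdt1 load the ring-shaped Mcm helicase onto DNA, which licenses origins for a single round of replication. Cdc45 and the GINS complex then join the helicase and switch it on, primase and DNA polymerase alpha lay down primers, and polymerases delta and epsilon extend them under the sliding clamp Pcna, which the Rfc complex loads. Ribonucleotide reductase, thymidylate synthase, thymidine kinase and dUTPase supply deoxynucleotides, and Chaf1a, Chaf1b and Uhrf1 rebuild chromatin behind the fork. Cyclin E with Cdk2 and the E2F factors, which are held back by the RB family, control the passage from G1 into S phase. Transcription of most of these genes peaks at that passage through E2F sites in their promoters, so their RNA is commonly read as a sign of how many cells in a culture are cycling. In myoblasts, cells leave this cycle before they fuse into myotubes.

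RefSeq promoter windows (GRCm38.p6, 250 bases before to 50 after a start) were matched by symbol for 35 of the 43 genes (all but *Mcm4*, *Gins1*, *Gins2*, *Gins4*, *Prim2*, *Pole*, *Rfc2* and *Ccne2*). The letters TTTCCCGC, TTTGGCGC, TTTCGCGC or TTTGCCGC, forms of the E2F site, were found on either strand in 15 of the 35 genes (42.9%), against 4.65% of the 10763 genes with a window that passed the count filter and 2.60% of all 27025 genes with a window. By role, they were present in 7 of 9 origin licensing genes (not in *Mcm2* or *Orc6*), 4 of 5 polymerase and primase genes (not in *Prim1*) and 0 of 5 nucleotide supply genes. They were found in 1 of 3 helicase activation genes and 2 of 7 clamp, clamp loader and lagging strand genes. Of the chromatin and histone supply genes 1 of 4 held them, and of the G1/S regulators 0 of 2. The letters CCAAT were found in 57.1% of the 35 genes and in 43.1% of the genes that passed the filter, and TTTGAA, the core of the cell cycle homology region of G2 and mitosis genes, in 11.4% and 14.5%. The 150 bases before the start are printed for 5 genes that hold an E2F form there and differ in their counts, and for *Ccne1*, which has the largest fall and no such letters. Capitals mark the letters found, read on the plus or the minus strand, and in *Mcm6* a plus-strand and a minus-strand match overlap.
Cdc6, chr11:98908001-98908150, plus strand: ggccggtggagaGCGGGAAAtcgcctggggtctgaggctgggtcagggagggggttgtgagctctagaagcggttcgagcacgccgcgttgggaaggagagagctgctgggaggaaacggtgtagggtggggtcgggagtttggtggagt
Orc1, chr4:108579304-108579453, plus strand: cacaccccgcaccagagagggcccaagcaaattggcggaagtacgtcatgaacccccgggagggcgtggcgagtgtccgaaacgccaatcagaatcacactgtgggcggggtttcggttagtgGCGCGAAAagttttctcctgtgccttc
Mcm6, chr1:128359706-128359855, minus strand: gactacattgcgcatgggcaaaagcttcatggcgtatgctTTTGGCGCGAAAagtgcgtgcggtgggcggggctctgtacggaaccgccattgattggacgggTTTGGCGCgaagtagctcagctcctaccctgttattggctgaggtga
Gins3, chr8:95633409-95633558, plus strand: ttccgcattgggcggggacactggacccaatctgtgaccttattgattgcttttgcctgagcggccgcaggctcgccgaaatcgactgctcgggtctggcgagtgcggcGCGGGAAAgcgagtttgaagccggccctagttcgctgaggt
Pola1, chrX:93632156-93632305, minus strand: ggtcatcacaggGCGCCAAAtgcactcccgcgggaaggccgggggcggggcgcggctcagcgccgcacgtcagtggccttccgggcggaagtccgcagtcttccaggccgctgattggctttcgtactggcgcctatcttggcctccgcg
Ccne1, chr7:38107491-38107640, minus strand: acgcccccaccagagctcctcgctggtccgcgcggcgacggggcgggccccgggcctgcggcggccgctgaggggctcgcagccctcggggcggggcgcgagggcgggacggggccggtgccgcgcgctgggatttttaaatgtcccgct
A match to these letters is a description of the sequence and no evidence of binding in these cells.

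Library totals ran from 12719173 to 75179394 counts (median 22290216 over 23 libraries), except for replicate 2 of *Baf250a* KD with Zn, which had 495778 counts and only 1606 counts on the 43 genes. The main results that rest on this library are given with and without it, and its values alone carry the counting error of so few reads. The targeted transcripts were lower in their own line: untreated libraries held 65.8 and 75.7 CPM (counts scaled to the library total after TMM normalization) of *Pbrm1* in *Baf180* KD cells against 143 and 99.9 in scr, 100.1 and 98.8 of *Arid1a* in *Baf250a* KD against 283 and 292, and 17.9 and 17.01 of *Brd9* in *Brd9* KD against 27.2 and 32.4. The myoblast factor *Myod1* was present in all 12 conditions, while blood, endothelial, epithelial, adipocyte and neural lists each had only 1 marker above the count filter (*Hbb-bs* had 0 counts in all 24 libraries, and the neural list reached 113 CPM through *Tubb3*). *Tubb3*, a tubulin, was at 103 and 113 CPM in untreated scr, 11.6 and 12.2 in *Baf180* KD, 12.8 and 10.1 in *Baf250a* KD and 82.5 and 66.1 in *Brd9* KD cells. The endothelial marker *Kdr* was lower in all 3 untreated KD lines, at -2.70, -4.19 and -2.59 on the log2 scale. Their part in the results was not tested. The libraries also differed in how counts followed the GC content of genes. Slopes of log2 expression ran from -0.34 per 10 percentage points (scr with Zn, replicate 2) to 0.32 (untreated scr, replicate 2). The counts of the 43 genes in the 20 main comparisons were therefore repeated after a correction for GC content and length. Counts of the other gene lists, and of KD lines against scr with the same metal, were not. CPM are relative to the other RNA of a library, and in bulk RNA fewer cycling cells and less RNA per cell cannot be told apart.

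Per kilobase of exon, which allows genes to be compared, *Rrm2* led with 142 CPM per kilobase over the 24 libraries, followed by *Pcna* (52.8), *Mcm3* (51.1), *Uhrf1* (43.8) and *Mcm4* (42.9). The lowest were *Pola1* (4.35), *Prim2* (4.87) and *Orc1* (4.98). The 6 subunits of the Mcm helicase lay between 28.9 (*Mcm2*) and 51.1 (*Mcm3*), while the GINS subunits, which also form a complex with equal parts, ran from 7.49 (*Gins2*) to 29.6 (*Gins4*). In *Baf250a* KD cells without metal *Rrm2* was at 100.1 CPM per kilobase, against 154 in untreated scr cells. A pseudogene, *Pcna-ps2*, took 20389 counts over the 24 libraries, so the level of *Pcna* is uncertain to the extent that reads were split between them.

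**Figure D1:**
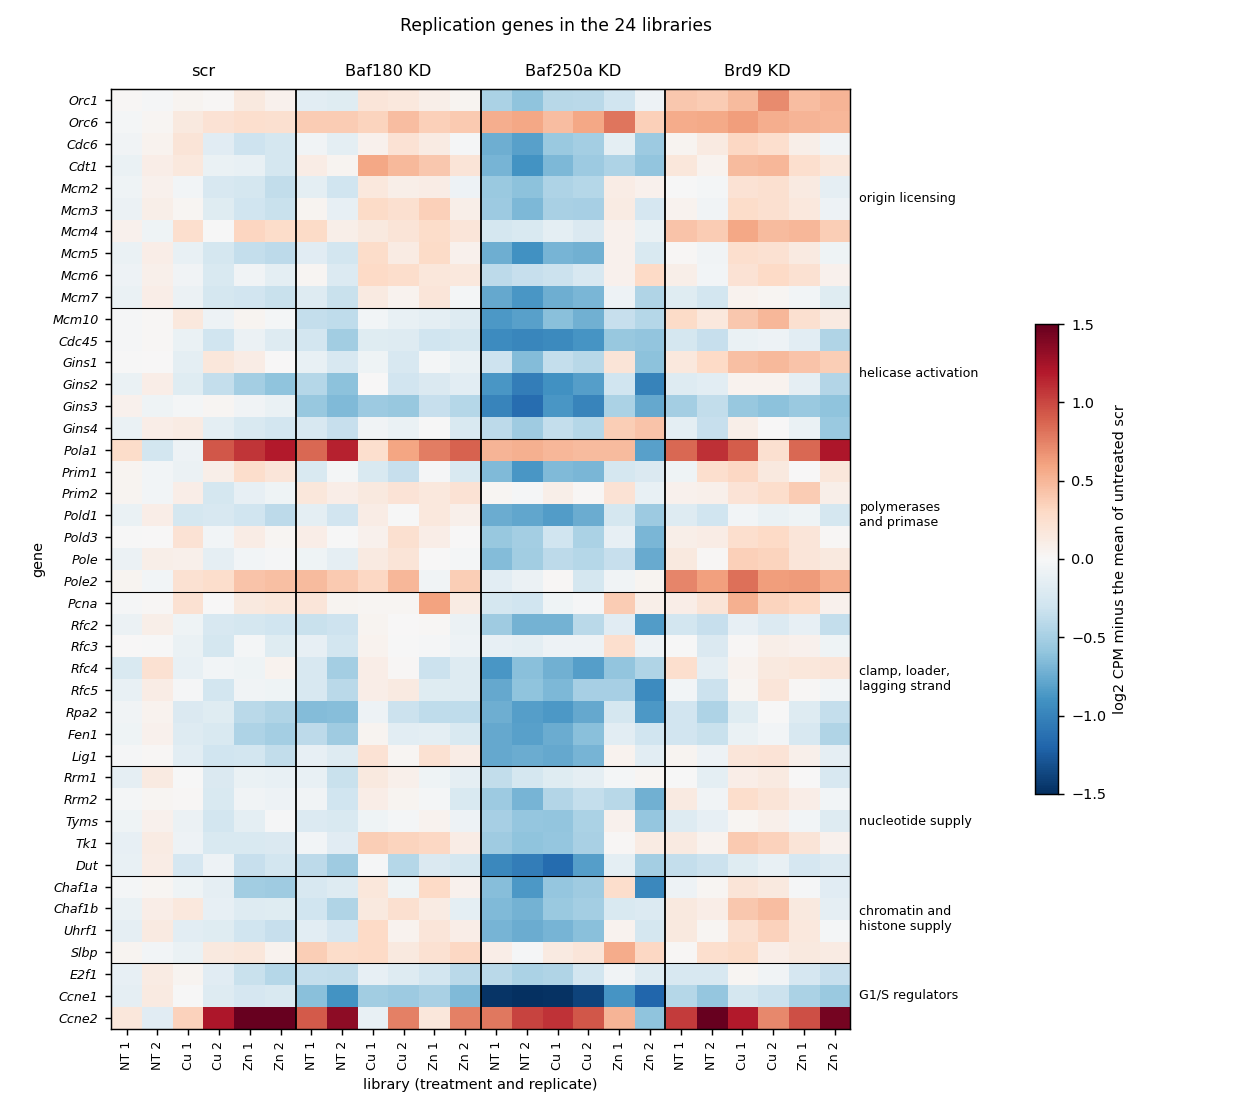
Log2 CPM of the 43 genes (rows, grouped by role) in the 24 libraries (columns, by cell line, treatment and replicate), each minus the mean of the untreated scr libraries; the colour scale ends at -1.5 and 1.5. The *Baf250a* KD columns are blue without metal and with Cu for most rows and paler with Zn, and *Ccne2* and *Pola1* run against the other rows.

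The first comparison asked how the genes differed between each KD line and scr without added metal. It set 2 libraries of a KD line against 2 of scr. In *Baf250a* KD cells the replication genes were lower almost throughout: 35 of 43 fell and 3 rose (*Orc6*, *Pola1* and *Ccne2*), while *Mcm4*, *Prim2*, *Pole2*, *Rfc3* and *Slbp* did not pass the test. The test called 57.8% of 14971 genes in this comparison (28.9% lower, 28.9% higher), and the median log2 fold change was -0.62 over the 43 genes and 0.00 over all genes tested. The 43 genes took 0.264% and 0.256% of all counts in the *Baf250a* KD libraries and 0.349% and 0.374% in scr. Both *Baf250a* KD libraries lay below both scr libraries for 38 of the 43 genes (38.2% of all genes) and above for 3 (39.1%).

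The *Baf180* KD line had 11 of the 43 genes lower and 5 higher, with 41.0% of 14851 genes called (19.3% lower, 21.7% higher) and a median of -0.20 (0.03 over all genes). The genes that fell were *Mcm10*, *Cdc45*, *Gins2*, *Gins3*, *Rfc2*, *Rpa2*, *Fen1*, *Dut*, *Chaf1b*, *E2f1* and *Ccne1*, and those that rose were *Orc6*, *Pola1*, *Pole2*, *Slbp* and *Ccne2*. In *Brd9* KD cells 6 rose (*Orc1*, *Orc6*, *Mcm4*, *Pola1*, *Pole2* and *Ccne2*) and 3 fell (*Gins3*, *Rpa2* and *Ccne1*), with 29.2% of 14277 genes called (15.1% higher, 14.1% lower) and a median of 0.04 (0.01 over all genes). The members' share called was thus below that of all genes in the *Baf180* and *Brd9* KD lines. The 3 comparisons use the same scr libraries, and each is therefore given by its own values.

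**Figure D2:**
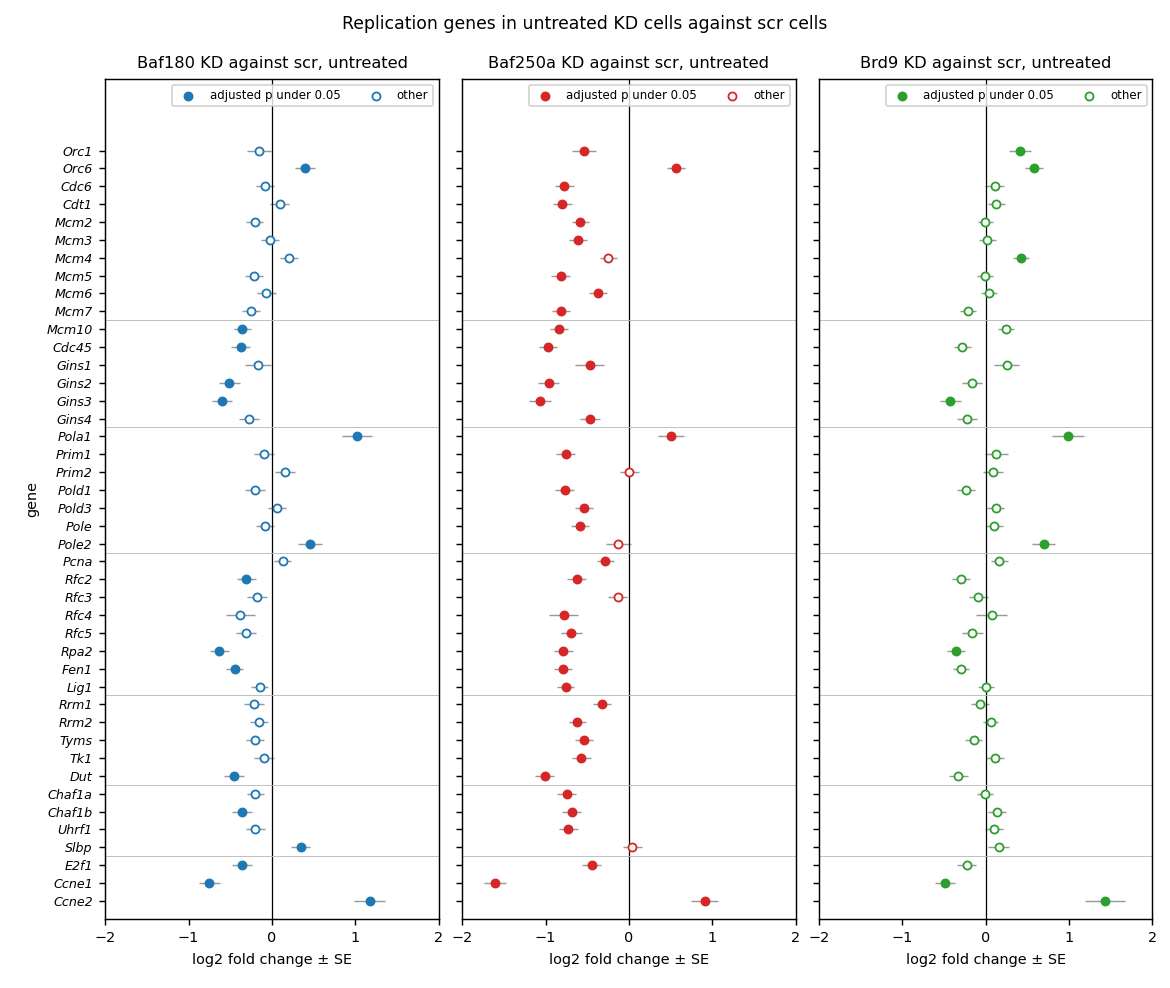
Log2 fold change of each gene in untreated KD cells against untreated scr cells, with its standard error, by role (2 libraries a group); filled points have an adjusted p under 0.05. In *Baf250a* KD cells 35 points are filled to the left of 0 and 3 to the right, against 11 and 5 in *Baf180* KD and 3 and 6 in *Brd9* KD cells.

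Of the origin licensing genes, 8 of 10 fell in *Baf250a* KD cells and *Orc6* rose, while *Orc6* alone was called in *Baf180* KD and *Orc1*, *Orc6* and *Mcm4* rose in *Brd9* KD cells. *Mcm2*, a subunit of the helicase ring (GRCm38, chromosome 6, from 88883474 to 88898780), was at 205 and 223 CPM in untreated scr and 193 and 174 CPM in *Baf180* KD cells. *Mcm2* stood at 145 and 139.9 CPM in *Baf250a* KD and 212 and 209 CPM in *Brd9* KD cells. The *Baf250a* KD libraries lay below all other untreated libraries, with a log2 fold change of -0.59 (SE 0.10, adjusted p = 0.000323) against scr. *Cdc6*, which loads the ring (chromosome 11, from 98907801 to 98923940), was at 46.6 and 50.1 CPM in untreated scr and 46.7 and 43.5 CPM in *Baf180* KD cells. *Cdc6* stood at 29.1 and 27.5 CPM in *Baf250a* KD and 49.8 and 53.1 CPM in *Brd9* KD cells. Its fold change in *Baf250a* KD cells was -0.77 (SE 0.11, adjusted p = 7.56e-05), and it was -0.09 and 0.11 in *Baf180* and *Brd9* KD cells, neither of which passed the test.

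*Cdt1*, the partner of *Cdc6* in loading, was at 79.5 and 90.5 CPM in untreated scr and 91.5 and 87.5 CPM in *Baf180* KD cells. *Cdt1* stood at 52.1 and 45.5 CPM in *Baf250a* KD and 95.7 and 87.7 CPM in *Brd9* KD cells. The change was -0.80 (SE 0.12, adjusted p = 7.31e-05) in *Baf250a* KD cells, and both of its libraries were the lowest of the untreated ones. *Orc6*, the subunit of the origin recognition complex that went the other way (chromosome 8, from 85299632 to 85308278), was at 31.1 and 32.6 CPM in untreated scr and 41.4 and 41.5 CPM in *Baf180* KD cells. *Orc6* stood at 46.6 and 47.5 CPM in *Baf250a* KD and 46.7 and 47.3 CPM in *Brd9* KD cells. All 6 KD libraries were above both scr libraries, with changes of 0.40 (SE 0.12, adjusted p = 0.0165), 0.56 (SE 0.11, adjusted p = 0.00076) and 0.58 (SE 0.11, adjusted p = 0.0073). *Orc1*, the largest subunit, instead fell in *Baf250a* KD cells (-0.54) and rose in *Brd9* KD cells (0.41, adjusted p = 0.0439). The remaining helicase subunits that fell in *Baf250a* KD cells ranged from -0.37 (*Mcm6*) to -0.82 (*Mcm7*), and *Mcm4* was at -0.25 with an adjusted p of 0.0589.

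The helicase activation genes were the role with the largest median fall in *Baf250a* KD cells, -0.90, and all 6 were called lower there. Of these 6, 4 fell in *Baf180* KD cells (median -0.37) and in *Brd9* KD cells 1 of 6 (median -0.20). *Mcm10*, which helps to start the helicase, was at 59.3 and 60.97 CPM in untreated scr and 47.01 and 45.98 CPM in *Baf180* KD cells. *Mcm10* stood at 33.1 and 34.2 CPM in *Baf250a* KD and 73.4 and 67.3 CPM in *Brd9* KD cells. The *Brd9* KD libraries were the highest and the *Baf250a* KD libraries the lowest, at -0.84 (SE 0.11, adjusted p = 2.66e-05) against scr. *Gins3*, a GINS subunit (chromosome 8, from 95633453 to 95645060), was at 34.5 and 31.8 CPM in untreated scr and 22.4 and 20.9 CPM in *Baf180* KD cells. *Gins3* stood at 16.6 and 15.02 CPM in *Baf250a* KD and 23.2 and 25.6 CPM in *Brd9* KD cells. All 6 KD libraries were below both scr libraries. Its changes were -1.07 (SE 0.13, adjusted p = 1.42e-05) in *Baf250a* KD, -0.60 (SE 0.12, adjusted p = 0.00266) in *Baf180* KD and -0.42 (SE 0.13, adjusted p = 0.0387) in *Brd9* KD cells. *Gins2* was at 36.2 and 41.9 CPM in untreated scr and 28.9 and 25.4 CPM in *Baf180* KD cells. *Gins2* stood at 21.2 and 18.9 CPM in *Baf250a* KD and 34.1 and 34.8 CPM in *Brd9* KD cells. It fell in *Baf250a* KD (-0.96) and *Baf180* KD cells (-0.51). *Gins4* was at 40.7 and 46.5 CPM in untreated scr and 36.9 and 34.2 CPM in *Baf180* KD cells. *Gins4* stood at 33.1 and 30.1 CPM in *Baf250a* KD and 39.2 and 34.2 CPM in *Brd9* KD cells. *Gins4* and *Gins1* changed least of the role in *Baf250a* KD cells (-0.47 and -0.47), while *Cdc45*, which completes the active helicase, fell by 0.97.

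Among the polymerases and primase the members were split. *Pola1*, the catalytic subunit of polymerase alpha (chromosome X, from 93304767 to 93632155), was at 28.9 and 19.8 CPM in untreated scr and 43.6 and 53.5 CPM in *Baf180* KD cells. *Pola1* stood at 34.2 and 34.6 CPM in *Baf250a* KD and 43.4 and 51.4 CPM in *Brd9* KD cells. All 6 KD libraries were above both scr libraries and the changes were 1.02 (SE 0.18, adjusted p = 0.000853), 0.51 (SE 0.16, adjusted p = 0.0148) and 0.99 (SE 0.19, adjusted p = 0.00799). With GC content and length corrected for they were 0.52, -0.06 and 0.51, and the second did not pass (adjusted p = 0.661). *Pole*, the catalytic subunit of polymerase epsilon, was at 89.7 and 101 CPM in untreated scr and 91.3 and 86.7 CPM in *Baf180* KD cells. *Pole* stood at 60.7 and 66.3 CPM in *Baf250a* KD and 106 and 96.6 CPM in *Brd9* KD cells. It fell by 0.59 on the log2 scale in *Baf250a* KD cells. Its partner *Pole2* rose in *Baf180* (0.45) and *Brd9* KD cells (0.70), and *Prim1*, *Pold1* and *Pold3* fell in *Baf250a* KD cells by 0.76, 0.77 and 0.54.

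Of the clamp, clamp loader and lagging strand genes, 7 of 8 fell in *Baf250a* KD cells, 3 in *Baf180* KD cells (*Rfc2*, *Rpa2* and *Fen1*) and 1 in *Brd9* KD cells (*Rpa2*). *Pcna*, the sliding clamp (chromosome 2, from 132249162 to 132253314), was at 114 and 117 CPM in untreated scr and 131 and 118 CPM in *Baf180* KD cells. *Pcna* stood at 95.7 and 93.9 CPM in *Baf250a* KD and 124 and 131 CPM in *Brd9* KD cells. Its fall in *Baf250a* KD cells was the smallest of those called in this role, -0.28 (SE 0.10, adjusted p = 0.0304). *Rpa2*, a subunit of the protein that coats single-stranded DNA, was at 51.2 and 54.8 CPM in untreated scr and 33.8 and 33.9 CPM in *Baf180* KD cells. *Rpa2* stood at 31.8 and 29.8 CPM in *Baf250a* KD and 43.3 and 38.4 CPM in *Brd9* KD cells. All 6 KD libraries were below both scr libraries, with falls of 0.63, 0.79 and 0.36 on the log2 scale (adjusted p = 0.00105, 6.11e-05 and 0.0397). *Fen1* and *Lig1*, which trim and seal Okazaki fragments, fell by 0.79 and 0.76 in *Baf250a* KD cells.

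All 5 nucleotide supply genes fell in *Baf250a* KD cells, 1 (*Dut*) in *Baf180* KD and none in *Brd9* KD cells. *Rrm2*, the regulated subunit of ribonucleotide reductase (chromosome 12, from 24708241 to 24714146), was at 417 and 435 CPM in untreated scr and 412 and 347 CPM in *Baf180* KD cells. *Rrm2* stood at 291 and 264 CPM in *Baf250a* KD and 469 and 409.8 CPM in *Brd9* KD cells. The change in *Baf250a* KD cells was -0.62 (SE 0.10, adjusted p = 0.000181). *Tk1*, thymidine kinase, was at 80.2 and 95.2 CPM in untreated scr and 85.2 and 77.4 CPM in *Baf180* KD cells. *Tk1* stood at 60.6 and 57.4 CPM in *Baf250a* KD and 95.99 and 90.8 CPM in *Brd9* KD cells. It fell by 0.57 in *Baf250a* KD cells. *Dut*, the dUTPase, had the largest change of this role in *Baf250a* KD cells, -1.01 (SE 0.12, adjusted p = 1.17e-05), and -0.45 (SE 0.12, adjusted p = 0.01) in *Baf180* KD cells.

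Of the 4 chromatin and histone supply genes, *Chaf1a*, *Chaf1b* and *Uhrf1* fell in *Baf250a* KD cells. *Uhrf1*, which guides maintenance methylation to new DNA, was at 181 and 217 CPM in untreated scr and 177 and 166 CPM in *Baf180* KD cells. *Uhrf1* stood at 122 and 118 CPM in *Baf250a* KD and 219.6 and 202 CPM in *Brd9* KD cells. The *Baf250a* KD change was -0.73 (SE 0.11, adjusted p = 0.000128). *Chaf1a* and *Chaf1b* are subunits of the histone chaperone CAF-1. *Chaf1a* was at 138 and 143 CPM in untreated scr and 119 and 123 CPM in *Baf180* KD cells. *Chaf1a* stood at 90.2 and 77.2 CPM in *Baf250a* KD and 133 and 143 CPM in *Brd9* KD cells. It fell by 0.75 in *Baf250a* KD cells. The *Baf250a* KD libraries were the lowest untreated ones for both subunits. *Chaf1b* was at 54.5 and 62.2 CPM in untreated scr and 47.2 and 42.7 CPM in *Baf180* KD cells. *Chaf1b* stood at 36.9 and 35.7 CPM in *Baf250a* KD and 64.7 and 62.3 CPM in *Brd9* KD cells. Its changes were -0.69 and -0.36 in *Baf250a* and *Baf180* KD cells against scr. *Slbp*, which binds the stem-loop at the end of histone messages, stood outside this pattern at 37.1 and 35.2 CPM in untreated scr and 46.7 and 43.8 CPM in *Baf180* KD cells. *Slbp* stood at 38.6 and 35.8 CPM in *Baf250a* KD and 36.6 and 42.9 CPM in *Brd9* KD cells. It rose in *Baf180* KD cells, 0.34 (SE 0.11, adjusted p = 0.0295), and did not pass the test in *Baf250a* KD cells (0.04). The *Baf180* KD call held in 3 of 10 alternatives and 1 of 4 fits with a library left out (without replicate 1 of untreated scr), and the value was 0.07 after the GC and length correction.

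The pair of E cyclins moved in opposite directions in all 3 lines. *Ccne1* (chromosome 7, from 38097984 to 38107534) was at 65.01 and 78.2 CPM in untreated scr and 45.98 and 38.3 CPM in *Baf180* KD cells. *Ccne1* stood at 25.6 and 21.5 CPM in *Baf250a* KD and 52.95 and 47.5 CPM in *Brd9* KD cells. Both scr libraries were above, and both *Baf250a* KD libraries below, all the others, and the changes were -1.60 (SE 0.13, adjusted p = 4.3e-07) in *Baf250a* KD, -0.75 (SE 0.13, adjusted p = 0.00078) in *Baf180* KD and -0.49 (SE 0.12, adjusted p = 0.0188) in *Brd9* KD cells. *Ccne2* (chromosome 4, from 11191351 to 11204779), which has the lowest GC content of the 43 genes, 36.3%, was at 13.4 and 10.5 CPM in untreated scr and 22.7 and 30.3 CPM in *Baf180* KD cells. *Ccne2* stood at 20.7 and 24.1 CPM in *Baf250a* KD and 24.6 and 39.1 CPM in *Brd9* KD cells. Every KD library was above both scr libraries, with changes of 1.17 (SE 0.18, adjusted p = 0.00045), 0.91 (SE 0.16, adjusted p = 0.000319) and 1.43 (SE 0.24, adjusted p = 0.00477). With GC content and length corrected for they were 0.44, 0.07 and 0.58, and the change in *Baf250a* KD cells was no longer called (adjusted p = 0.625), while *Ccne1* kept -0.75, -1.61 and -0.41. *E2f1*, the E2F activator among the 43 genes, was at 63.2 and 75.04 CPM in untreated scr and 53.5 and 53.1 CPM in *Baf180* KD cells. *E2f1* stood at 52.01 and 49.5 CPM in *Baf250a* KD and 58.4 and 58.05 CPM in *Brd9* KD cells. It fell in *Baf250a* KD (-0.45) and *Baf180* KD cells (-0.36).

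These counts differed in how firmly they stood. The shares of all genes called in the other fits are not given here, so the values below show only how the calls moved. In *Baf250a* KD cells 30 to 38 genes were called with any of the 4 libraries left out and 41 (40 lower, 36 shared with the first 38) after the GC and length correction, which moved the median of all genes to -0.16 and that of the 43 to -0.70. The *Baf180* KD count was 9 without replicate 1 and 5 without replicate 2 of the KD line, 27 without replicate 1 of scr, and 24 (22 lower, 2 higher, 13 shared) after the correction, with the median of all genes at -0.12. In *Brd9* KD cells it was 3 without replicate 1 and 1 without replicate 2 of the KD line, 14 without replicate 1 of scr, and 11 (6 higher, 5 lower) after the correction.

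The KD lines were also set against each other, without the scr libraries. Against *Baf180* KD cells, 34 of the 43 genes were lower in *Baf250a* KD cells and none higher (33.9% of 15084 genes called, 18.3% lower), with a median of -0.46 (-0.03 over all genes). Against *Brd9* KD cells 37 were lower and none higher (47.5% of 14861 genes called, 24.3% lower), with a median of -0.66. These 2 comparisons share the *Baf250a* KD libraries. *Cdt1* differed by -0.89 (SE 0.09, adjusted p = 2.68e-05) and -0.93 (SE 0.10, adjusted p = 1.38e-07), *Mcm10* by -0.49 (SE 0.09, adjusted p = 0.00124) and -1.08 (SE 0.10, adjusted p = 1.13e-08), and *Ccne1* by -0.85 (SE 0.11, adjusted p = 0.0002) and -1.11 (SE 0.11, adjusted p = 6.94e-08). Between *Baf180* and *Brd9* KD cells 4 genes differed, all lower in *Baf180* KD (*Orc1*, *Mcm10*, *Chaf1b* and *Uhrf1*), with 14.6% of 14880 genes called (9.42% higher, 5.19% lower) and a median of -0.17. The largest of these was *Mcm10*, -0.59 (SE 0.09, adjusted p = 0.00265). The count between *Baf180* and *Brd9* KD cells was 11, all lower, after the GC and length correction.

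The other genes of the pathway, 81 in 5 lists chosen by function, were also counted in *Baf250a* KD cells: 39 of 79 tested fell and 14 rose, with a median of -0.28. Of all genes, 28.9% were called lower and 28.9% higher in this line against scr. Of the remaining replication machinery 19 of 40 fell and 6 rose. The licensing inhibitor geminin (*Gmnn*) fell by 1.12 on the log2 scale, the polymerase delta subunit *Pold2* by 1.39 and the fork protection factor *Timeless* by 1.22. Among those that rose were *Orc3*, *Orc4* and *Pold4*, and *Samhd1*, which degrades deoxynucleotides, and *Rrm2b*, the ribonucleotide reductase subunit used outside S phase, were at 1.11 and 0.85.

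Of 14 genes of G2 and mitosis, 10 fell in *Baf250a* KD cells and none rose (median -0.70), among them *Cdc20* (-1.41), *Plk1* (-1.33) and *Cdk1* (-1.17). In *Baf180* KD cells 4 fell and 3 rose, where 19.3% of all genes were called lower and 21.7% higher. In *Brd9* KD cells 5 rose and none fell, where 15.1% of all genes were called higher and 14.1% lower. Of the regulators, the RB family genes *Rb1* and *Rbl2* rose in *Baf250a* KD cells (1.09 and 1.03), as did cyclin D1 (*Ccnd1*, 1.24), while *Cdk2*, the kinase partner of cyclin E, fell (-0.85). The same 3 genes rose in *Baf180* KD (0.71, 0.73 and 1.12) and in *Brd9* KD cells (0.74, 0.58 and 1.36). The CDK inhibitor p21 (*Cdkn1a*) rose in *Baf250a* KD cells (0.53, adjusted p = 0.00183) and fell in *Brd9* KD cells (-0.56, adjusted p = 0.0116), a difference of 1.09 between those lines (adjusted p = 3.97e-09). *Cdkn1c*, an inhibitor that is also on the list of differentiated muscle markers, was at 0.127 and 0.139 CPM in untreated scr, 0.986 and 0.741 in *Baf180* KD and 1.35 and 0.8 in *Baf250a* KD cells.

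Muscle markers moved in the same comparisons. Of 8 myoblast markers 6 fell and 2 rose in *Baf250a* KD cells (median -1.45), and their summed level was 1709 to 1849 CPM against 4501 to 5041 in untreated scr cells. The 2 that rose there were *Myod1* and *Vcam1*. The sum is led by *Des*, which held the most counts of the 8 markers in these libraries (34856 and 54241 in untreated scr). In *Baf180* KD cells 5 fell and 2 rose (2290 to 2504 CPM), and in *Brd9* KD cells 5 fell and 2 rose (2631 to 2923 CPM). Of 12 differentiated muscle markers 9 rose in *Baf180* KD cells (summed level 166 to 183 CPM against 96.0 to 97.4 in scr, with the regulator *Myog* and the myosins *Myh3* and *Myh8* at 2.36, 2.76 and 5.25). In *Baf250a* KD cells 3 of 9 tested rose and 2 fell (69.3 to 78.8 CPM), and in *Brd9* KD cells 5 of 8 fell (38.3 to 40.7 CPM). All 8 and 12 markers passed the filter over the 24 libraries, and their part in the levels of the replication genes was not tested.

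The second comparison asked how each line responded to Cu and Zn, with the 6 libraries of a line in the fit. In the main fit the response of *Baf250a* KD cells to Zn had the most calls among the 43 genes of the 8. In it 29 of the 43 genes rose and none fell, with a median of 0.48 (0.00 over all genes). Of 14706 genes tested, 15.9% were called (8.85% higher, 7.02% lower), against 17.6% of 15002 for Zn in scr cells. Replicate 2 with Zn held only 1606 counts on the 43 genes, and DESeq2 called 11 of them. With every library thinned to the smallest total the count was 0, against 4 for Zn in scr and 1 for Cu in *Baf180* KD cells. Every role took part in the 29 calls of *Baf250a* KD cells. Higher were 7 of 10 origin licensing, 6 of 6 helicase activation and 2 of 7 polymerase and primase genes. So were 4 of 8 clamp and lagging strand, 4 of 5 nucleotide supply, 4 of 4 chromatin and 2 of 3 G1/S genes. The share of all counts taken by the 43 genes was 0.357% and 0.324% with Zn, against 0.264% and 0.256% without metal. Cu gave no call in these cells (edgeR, 3 genes at an unadjusted p under 0.05, 0 by DESeq2, 1.27% of all genes called, 0.626% higher and 0.646% lower), with shares of 0.270% and 0.279%.

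In *Baf250a* KD cells *Mcm2* was at 145 and 139.9 CPM without metal, 155 and 159.5 with Cu and 230.4 and 224 with Zn. Both Zn libraries were above all 4 others, a change of 0.69 (SE 0.10, adjusted p = 4.2e-05). *Gins4* was at 33.1 and 30.1 CPM without metal, 33.9 and 32.3 with Cu and 56.3 and 58.3 with Zn, and it reached a level with Zn above every other library of the 24, with a change of 0.84 (SE 0.12, adjusted p = 5.59e-05). *Ccne1* was at 25.6 and 21.5 CPM without metal, 25.4 and 27.1 with Cu and 38.6 and 31.1 with Zn, a change of 0.68 (SE 0.14, adjusted p = 0.00127), and the Zn libraries were still below both untreated scr libraries. *Tk1* was at 60.6 and 57.4 CPM without metal, 58.2 and 62.2 with Cu and 88.2 and 95.3 with Zn, and rose by 0.60 on the log2 scale. *Uhrf1* was at 122 and 118 CPM without metal, 122 and 128 with Cu and 206 and 165 with Zn, and rose by 0.72. For both, the Zn libraries were above all 4 others.

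For further genes the replicates with Zn were less alike. *Chaf1a* was at 90.2 and 77.2 CPM without metal, 94.1 and 96.8 with Cu and 169 and 71.9 with Zn. Its change of 0.85 (SE 0.14, adjusted p = 0.000154) rested on the deep library, and the shallow one lay below both untreated libraries. *Gins2* was at 21.2 and 18.9 CPM without metal, 20.7 and 21.9 with Cu and 31.8 and 19.4 with Zn. *Rpa2* was at 31.8 and 29.8 CPM without metal, 29.2 and 31.1 with Cu and 44.2 and 29.2 with Zn. In both the shallow Zn library was again far below the deep one. *Cdc6* was at 29.1 and 27.5 CPM without metal, 32.8 and 33.8 with Cu and 43.7 and 33.1 with Zn, a change of 0.59 (SE 0.13, adjusted p = 0.0022). *Pcna* was at 95.7 and 93.9 CPM without metal, 111 and 114 with Cu and 150.1 and 122 with Zn, a change of 0.62 (SE 0.10, adjusted p = 0.000132). Both were called, with each Zn library above both untreated ones. *Mcm10* was at 38.8 and 36.5 CPM with Cu and 47.4 and 44.7 with Zn. *Gins3* was at 18.1 and 16.6 CPM with Cu and 23.7 and 19.4 with Zn. *Chaf1b* was at 39.5 and 41.04 CPM with Cu and 49.8 and 50.6 with Zn. Both Zn libraries exceeded the untreated ones for *Mcm10*, *Gins3* and *Chaf1b*, all called higher. *E2f1* was at 50.4 and 56.96 CPM with Cu and 66.4 and 60.3 with Zn. *Slbp* was at 39.8 and 41.1 CPM with Cu and 52.9 and 44.7 with Zn. The same held for *E2f1* and *Slbp*.

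Among the genes that did not pass, *Rrm2* was at 291 and 264 CPM without metal, 315 and 332 with Cu and 320.3 and 259 with Zn, a change of 0.14 (SE 0.11, adjusted p = 0.427). *Pole* was at 60.7 and 66.3 CPM without metal, 72.4 and 70.6 with Cu and 74.7 and 56.4 with Zn, 0.19 (SE 0.11, adjusted p = 0.254). *Cdt1* was at 52.1 and 45.5 CPM without metal, 53.1 and 57.9 with Cu and 61.4 and 56.4 with Zn, 0.32 (SE 0.12, adjusted p = 0.0681). Nor were the genes that had been higher in untreated *Baf250a* KD cells called with Zn. *Orc6* was at 46.6 and 47.5 CPM without metal, 43.99 and 47.5 with Cu and 55.4 and 40.8 with Zn. *Pola1* was at 34.2 and 34.6 CPM without metal, 33.8 and 33.2 with Cu and 33.1 and 13.6 with Zn. *Ccne2* was at 20.7 and 24.1 CPM without metal, 25.4 and 22.8 with Cu and 16.99 and 7.78 with Zn, a change of -0.45 (SE 0.16, adjusted p = 0.0595).

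Without the shallow library, so with a single deep Zn library whose spread was taken from the other groups, 34 genes were called, among them all 29, with 33 higher and *Ccne2* lower (-0.41). *Chaf1a* was then at 1.00 and *Mcm2* at 0.68. From the shallow library alone 2 genes were called, *Mcm2* (0.67) and *Mcm6* (0.69), 29 of 43 had a fold change above 0, and the median was 0.29 where that of all genes was -0.17. DESeq2 called 11, thinning every library to 495778 counts left 0 (edgeR), leaving out replicate 2 of the untreated cells left 15, and the GC and length correction left 27, 26 of them shared.

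**Figure D3:**
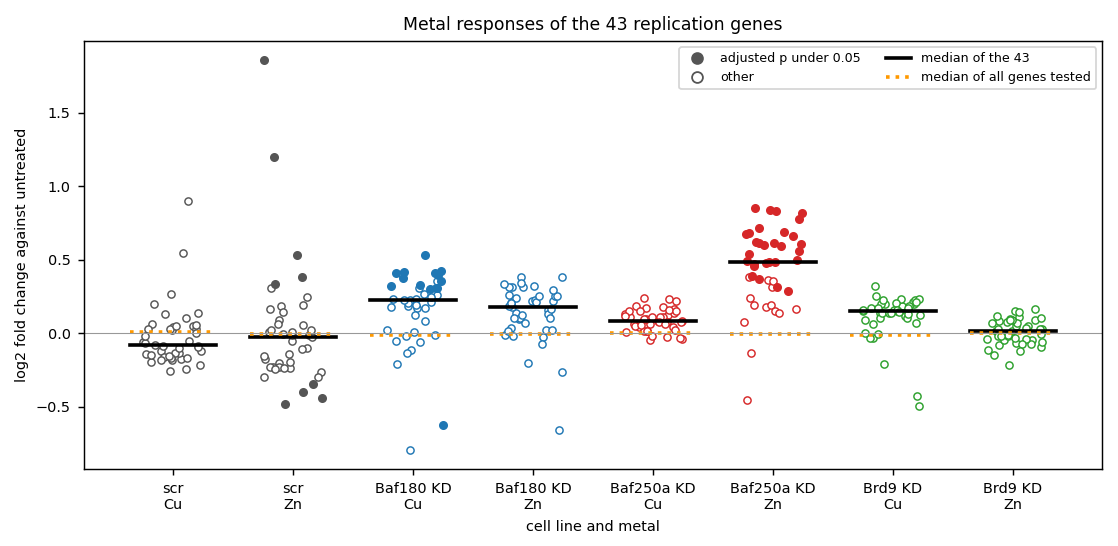
Log2 fold change of each of the 43 genes with Cu or Zn against the untreated cells of the same line (points, spread sideways for legibility; filled, adjusted p under 0.05), with the median of the 43 genes (black line) and of all genes tested (dotted line). With Zn in *Baf250a* KD cells the median is 0.48, and 29 filled points lie above 0.

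In *Baf180* KD cells, Cu raised 13 of the 43 genes and lowered 1, *Pola1*, with 13.8% of 15241 genes called (5.46% higher, 8.30% lower) and a median of 0.23. Those that rose were *Cdt1*, *Mcm2*, *Mcm5*, *Mcm6*, *Mcm7*, *Rfc2*, *Rfc5*, *Rpa2*, *Fen1*, *Rrm1*, *Tk1*, *Chaf1b* and *Uhrf1*. *Chaf1b* was at 47.2 and 42.7 CPM without metal, 64.4 and 68.6 with Cu and 63.4 and 52.6 with Zn, with a change with Cu of 0.53 (SE 0.10, adjusted p = 0.0142). *Tk1* was at 85.2 and 77.4 CPM without metal, 113 and 110.4 with Cu and 108 and 94.3 with Zn, 0.42 (SE 0.09, adjusted p = 0.0162). *Cdt1* was at 91.5 and 87.5 CPM without metal, 127 and 119 with Cu and 112 and 97.3 with Zn, 0.42 (SE 0.09, adjusted p = 0.0163). For these 3 genes both libraries of either metal were above both untreated libraries.

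*Mcm2* was at 193 and 174 CPM without metal, 239 and 227 with Cu and 230.3 and 203 with Zn in the same line. *Uhrf1* was at 177 and 166 CPM without metal, 243 and 205 with Cu and 225 and 212 with Zn. *Rpa2* was at 33.8 and 33.9 CPM without metal, 50.2 and 42.3 with Cu and 40.6 and 40.5 with Zn. These 3 passed the test with Cu and did not pass with Zn. *Pola1*, at 43.6 and 53.5 CPM without metal, 28.4 and 36.2 with Cu and 40.9 and 44.4 with Zn, fell with Cu, -0.62 (SE 0.14, adjusted p = 0.0233), and *Ccne2*, at 22.7 and 30.3 CPM without metal, 10.98 and 20.2 with Cu and 13.4 and 20.2 with Zn, did not pass, at -0.79 (SE 0.27, adjusted p = 0.077). With Zn no gene passed in *Baf180* KD cells (edgeR, 17 at an unadjusted p under 0.05, 1 by DESeq2, 8 with the replicate number as a block, 0.0197% of all genes called, 0.0131% higher and 0.00656% lower), although the median was 0.18 and both Zn libraries were above both untreated ones for 27 of 43 genes (23.2% of all genes). The count with Cu was 0 without replicate 1 of the Cu libraries or replicate 2 of the untreated libraries and 5 without replicate 1 of the untreated libraries, 5 after the GC and length correction (4 of them shared) and 23 with the replicate number as a block.

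No change with metal was called for the other genes with values in this line. *Cdc6* was at 46.7 and 43.5 CPM without metal, 50.7 and 56.2 with Cu and 52.8 and 47.8 with Zn. *Mcm10* was at 47.01 and 45.98 CPM without metal, 58.6 and 55.7 with Cu and 54.1 and 52.3 with Zn. *Pole* was at 91.3 and 86.7 CPM without metal, 104 and 109 with Cu and 95.7 and 93.4 with Zn. Both Cu libraries were above both untreated ones for these 3 genes. *Pcna* was at 131 and 118 CPM without metal, 118 and 117 with Cu and 176 and 125 with Zn. *Rrm2* was at 412 and 347 CPM without metal, 456 and 439.9 with Cu and 417 and 364 with Zn. *E2f1* was at 53.5 and 53.1 CPM without metal, 63.01 and 60.1 with Cu and 57.1 and 52.03 with Zn. The highest *Pcna* level of the 24 libraries was in 1 of the Zn libraries. *Ccne1* was at 45.98 and 38.3 CPM without metal, 49.7 and 48.8 with Cu and 50.9 and 45.01 with Zn. *Orc6* was at 41.4 and 41.5 CPM without metal, 40.01 and 43.9 with Cu and 40.6 and 41.7 with Zn. *Gins2* was at 39.2 and 31.8 CPM with Cu and 33.4 and 34.9 CPM with Zn. None of *Ccne1*, *Orc6* and *Gins2* was called with a metal in this line. *Gins3* was at 22.7 and 22.3 CPM with Cu and 26.1 and 24.6 CPM with Zn. *Gins4* was at 41.97 and 40.5 CPM with Cu and 43.2 and 37.2 CPM with Zn. No GINS subunit with values given was called. *Chaf1a* was at 158 and 134 CPM with Cu and 172 and 148 CPM with Zn. *Slbp* was at 44.5 and 39.9 CPM with Cu and 42.3 and 44.8 CPM with Zn.

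In scr cells Zn raised 5 genes (*Orc6*, *Mcm4*, *Pola1*, *Pole2* and *Ccne2*) and lowered 4 (*Gins2*, *Rpa2*, *Fen1* and *Chaf1a*), with 17.6% of 15002 genes called (10.5% higher, 7.13% lower) and a median of -0.03. *Ccne2* was at 13.4 and 10.5 CPM without metal, 15.2 and 27.8 with Cu and 39.2 and 42.2 with Zn. Its change with Zn, 1.86 (SE 0.28, adjusted p = 0.0275), was the largest of any of the 43 genes with a metal. *Pola1* was at 28.9 and 19.8 CPM without metal, 22.8 and 45.7 with Cu and 50.4 and 54.7 with Zn, 1.20 (SE 0.33, adjusted p = 0.0443) with Zn, and for both genes the replicates with Cu were far apart. *Chaf1a*, at 138 and 143 CPM without metal, 134 and 128 with Cu and 98.01 and 97.1 with Zn, fell with Zn by 0.44 (adjusted p = 0.0275), and *Gins2*, at 36.2 and 41.9 CPM without metal, 34.3 and 30.5 with Cu and 27.2 and 25.5 with Zn, by 0.48 (adjusted p = 0.0292). Without replicate 2 of the untreated libraries, or either Zn library, no gene was called by edgeR, and none after the GC and length correction (*Ccne2* 0.77, adjusted p = 0.0551).

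With Cu none of the 43 genes passed in scr cells (edgeR, 4 at an unadjusted p under 0.05, 0 by DESeq2, 0.0333% of all genes called, 0.00667% higher and 0.0267% lower). In scr cells *Mcm2*, *Cdc6*, *Cdt1*, *Pcna*, *Rrm2*, *Tk1*, *Mcm10*, *Pole*, *Gins3* and *Gins4* were not called with either metal. *Mcm2* was at 208 and 181 CPM with Cu and 178 and 165 CPM with Zn. *Cdc6* was at 55.1 and 42.9 CPM with Cu and 38.9 and 40.1 CPM with Zn. *Cdt1* was at 94.7 and 78.9 CPM with Cu and 78.5 and 70.9 CPM with Zn. The Cu replicates of these 3 licensing genes were farther apart than the Zn replicates. *Pcna* was at 135 and 115 CPM with Cu and 128 and 129.8 CPM with Zn. *Rrm2* was at 430.4 and 364 CPM with Cu and 410.4 and 405 CPM with Zn. *Tk1* was at 82.8 and 74.8 CPM with Cu and 74.4 and 75.1 CPM with Zn. For *Pcna* and *Rrm2* the Cu replicates were again the farther apart. *Mcm10* was at 67.3 and 57.1 CPM with Cu and 61.7 and 58.9 CPM with Zn. *Pole* was at 100.4 and 86.6 CPM with Cu and 92.6 and 94.1 CPM with Zn. *Gins3* was at 32.4 and 33.9 CPM with Cu and 31.9 and 30.95 CPM with Zn. *Gins4*, another GINS subunit, was at 47.4 and 39.3 CPM with Cu and 37.00 and 35.8 CPM with Zn.

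Most of the remaining chromatin and G1/S genes of scr cells were not called either. *Uhrf1* was at 178 and 174 CPM with Cu and 160.3 and 155 CPM with Zn. *Chaf1b* was at 64.9 and 53.3 CPM with Cu and 50.7 and 51.3 CPM with Zn. *Slbp* was at 33.7 and 39.9 CPM with Cu and 40.5 and 37.5 CPM with Zn. None of these 3 chromatin genes passed the test. *E2f1* was at 70.96 and 61.3 CPM with Cu and 54.7 and 51.3 CPM with Zn. *Ccne1* was at 70.8 and 62.2 CPM with Cu and 59.97 and 61.02 CPM with Zn. Of the genes called with Zn, *Orc6* was at 35.1 and 37.1 CPM with Cu and 37.9 and 37.7 with Zn, a rise of 0.34 (adjusted p = 0.0466). *Rpa2* fell with Zn, from 51.2 and 54.8 CPM to 39.9 and 38.8, with 45.8 and 46.7 in the Cu libraries (-0.34, adjusted p = 0.0392).

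In *Brd9* KD cells no gene passed with Cu (edgeR, 13 at an unadjusted p under 0.05, 0 by DESeq2, 0.274% of all genes called, 0.174% higher and 0.100% lower) or with Zn (0 at an unadjusted p under 0.05, 0 by DESeq2, 0.0334% called, 0.0267% higher and 0.00668% lower). With Cu the median was 0.15, and both Cu libraries were above both untreated ones for 35 of 43 genes (31.2% of all genes). *Mcm2* was at 249 and 253 CPM with Cu and 234 and 195 with Zn. *Cdc6* was at 60.1 and 57.7 CPM with Cu and 51.4 and 46.4 with Zn. *Cdt1* was at 118 and 120.0 CPM with Cu and 101 and 95.3 with Zn. The Cu libraries were the highest of the line for these 3 genes, with a change of 0.32 (SE 0.07, adjusted p = 0.127) for *Cdt1*. *Mcm10* was at 79.8 and 84.9 CPM with Cu and 71.1 and 65.98 with Zn. *Pole* was at 122 and 120.1 CPM with Cu and 108 and 106 with Zn. *Rrm2* was at 511 and 488 CPM with Cu and 457 and 414 with Zn. The Cu libraries held the highest levels of all 24 for these 3. *Pcna* was at 166 and 145 CPM with Cu and 142 and 120.3 with Zn. *Tk1* was at 114 and 111 CPM with Cu and 99.9 and 91.7 with Zn.

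The CAF-1 subunits and *Uhrf1* took the same course with Cu. *Chaf1a* was at 160.5 and 156 CPM with Cu and 139 and 125 with Zn. *Chaf1b* was at 76.9 and 80.2 CPM with Cu and 64.7 and 52.96 with Zn. *Uhrf1* was at 234 and 251 CPM with Cu and 220.2 and 194 with Zn. Their Cu libraries exceeded both untreated libraries, without a call. *Rpa2* was at 46.9 and 52.7 CPM with Cu and 46.2 and 41.3 with Zn. *E2f1* was at 70.02 and 66.5 CPM with Cu and 57.9 and 54.3 with Zn. *Ccne1* was at 59.5 and 56.8 CPM with Cu and 51.3 and 48.6 with Zn. The GINS genes differed among themselves. *Gins2* was at 40.2 and 40.5 CPM with Cu and 35.4 and 28.6 with Zn. *Gins4* was at 46.1 and 43.7 CPM with Cu and 40.7 and 29.5 with Zn. *Gins3* was at 22.4 and 21.5 CPM with Cu and 22.5 and 21.8 with Zn. The Cu libraries were above the Zn libraries for *Gins2* and *Gins4*, and not for *Gins3*. Of the genes that had risen in the untreated line, *Orc6* was at 49.1 and 46.5 CPM with Cu and 45.4 and 45.1 with Zn. *Pola1* was at 45.1 and 28.3 CPM with Cu and 43.4 and 55.7 with Zn. *Ccne2* was at 27.3 and 19.7 CPM with Cu and 23.3 and 32.2 with Zn. *Slbp*, which had not, was at 44.1 and 38.7 CPM with Cu and 39.95 and 39.4 with Zn.

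**Figure D4:**
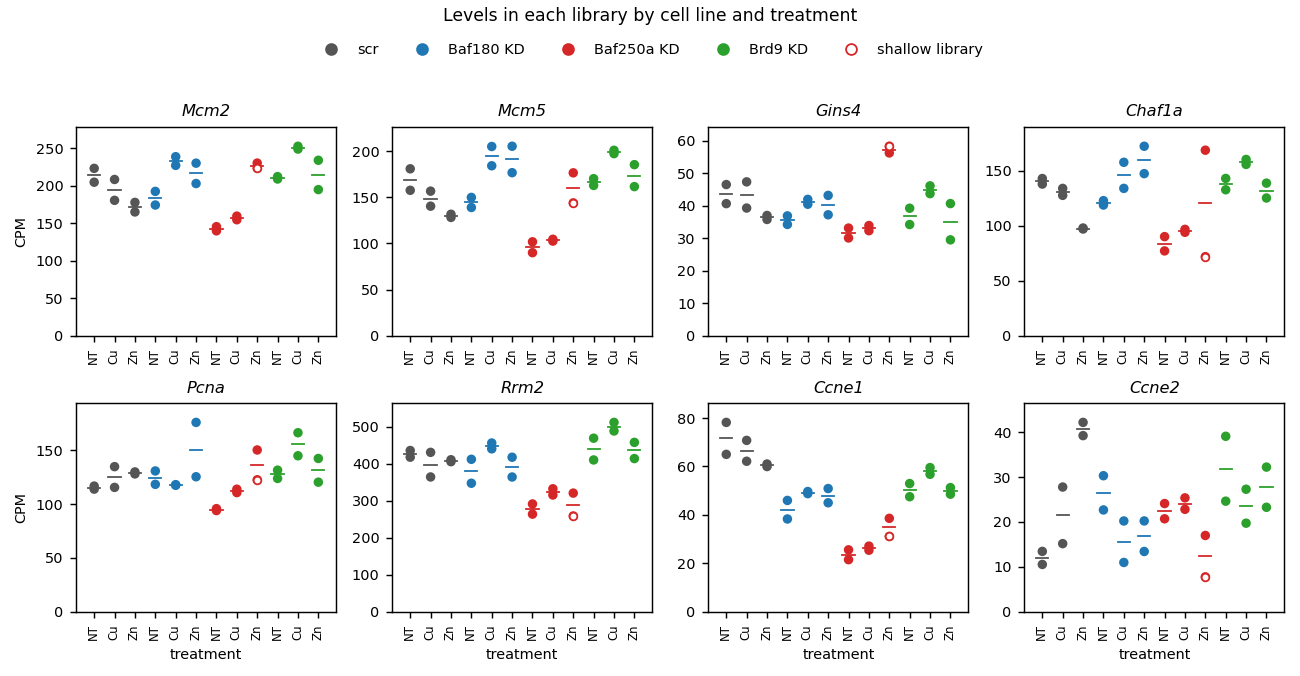
CPM of 8 genes in each library (points) with the mean of each condition (bar), by cell line (colour) and treatment (x axis); the open point is the shallow library of *Baf250a* KD with Zn. Of the untreated cells, *Baf250a* KD cells are lowest for *Mcm2*, *Mcm5*, *Chaf1a*, *Pcna*, *Rrm2* and *Ccne1*, and *Ccne2* is higher in both of their libraries than in scr.

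With Zn in *Baf250a* KD cells the other pathway genes were called mostly higher: 29 of 79 rose and 4 fell (median 0.24), with 15 of 40 of the remaining replication machinery and 9 of 14 G2 and mitosis genes higher. Of all genes, 8.85% were called higher and 7.02% lower in this response. Geminin was at 0.88, *Cdc20* at 0.86 and *Nasp*, a histone chaperone, at 0.74. The 4 that fell were *Orc3*, *Orc4*, *Rrm2b* and *Rb1*. Without the shallow library 33 of 79 rose and 6 fell, with geminin at 0.92, *Cdc20* at 0.82 and *Nasp* at 0.84. With Cu in *Baf180* KD cells 5 of 79 rose and 9 fell (median 0.02), against 5.46% of all genes higher and 8.30% lower. With Zn in scr cells 19 of 78 rose and 2 fell (median 0.16), against 10.5% of all genes higher and 7.13% lower. Those that rose included *Mki67*, the proliferation marker (1.55), *Orc4* (1.67) and *Rb1* (1.04). These scr values are not corrected for GC content, which the Zn fold changes of all genes followed in scr cells (Spearman's rho -0.68). The 9 calls of the 43 genes in that response were all lost after the correction. Of the muscle markers, 1 of 8 myoblast and none of 10 differentiated markers were called with Zn in *Baf250a* KD cells (*Myf5*, -0.77), with summed levels of 1835 to 1851 CPM and 71.2 to 81.7 CPM. Without the shallow library 2 of 8 myoblast markers fell (*Myf5* and *Chrna1*) and none of 10 differentiated markers was called. In addition, 3 of 12 differentiated markers fell with Cu in *Baf180* KD cells (136 to 139 CPM).

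The fold changes followed the GC content of the genes to differing degrees. Over the 43 genes (median GC content 49.3%, against 49.2% for all genes that passed), Spearman's rho between GC content and log2 fold change was -0.60 for untreated *Baf250a* KD against scr, -0.81 for Zn in scr cells, 0.60 for Cu in *Baf180* KD and 0.56 for Zn in *Baf250a* KD cells, and over all genes it was -0.28, -0.68, 0.50 and 0.36. The points share libraries and are given as a description. In the 2 libraries of untreated *Baf250a* KD cells the 11 genes of highest GC content were at medians of -0.75 and -0.81 relative to untreated scr and the 11 of lowest GC content at -0.12 and -0.09. The corrected fits shared part of the calls: 36 of 38 calls in *Baf250a* KD against scr and 26 of 29 for its Zn response were made in both fits, and 4 of 14 for Cu in *Baf180* KD and 0 of 9 for Zn in scr cells.

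**Figure D5:**
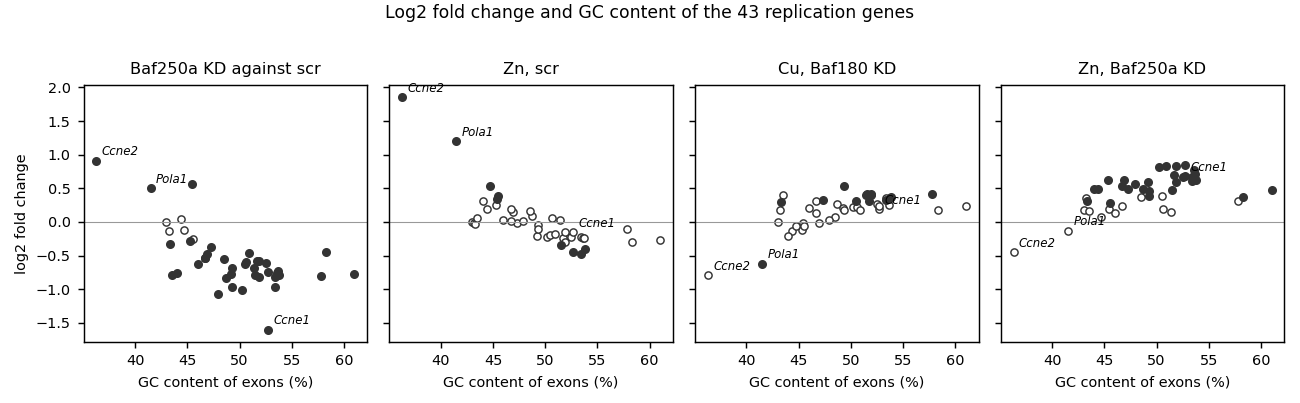
Log2 fold change of the 43 genes against the GC content of their exons in 4 comparisons (filled, adjusted p under 0.05), with *Ccne1*, *Ccne2* and *Pola1* named. Points slope down for *Baf250a* KD against scr and for Zn in scr cells and up for Cu in *Baf180* KD and Zn in *Baf250a* KD cells, with Spearman's rho of -0.60, -0.81, 0.60 and 0.56.

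The third comparison asked whether a KD line responded to a metal differently from scr cells, as a difference of log2 fold changes in a fit of all 24 libraries. For Zn in *Baf250a* KD cells the response was higher than in scr cells for 27 of 43 genes and lower for 2, *Pola1* and *Ccne2* (30.5% of 16524 genes called, 17.3% higher, 13.2% lower), with a median difference of 0.58 (0.06 over all genes). *Chaf1a* differed by 1.30 (SE 0.23, adjusted p = 0.000538), *Mcm5* by 1.19 (SE 0.16, adjusted p = 0.000119), *Fen1* by 1.09 (SE 0.14, adjusted p = 0.000106), and *Ccne2* by -2.24 (SE 0.47, adjusted p = 0.00159). Without the shallow library the 4 differences were 1.54, 1.26, 1.12 and -2.17, all called. From the shallow library alone they were 0.30, 0.96, 0.97 and -3.31, with *Chaf1a* and *Ccne2* not called. The count was 8 without replicate 1 of the *Baf250a* KD Zn libraries, 29 (28 shared) without the shallow replicate 2, and 30 (25 shared), all higher, after the GC and length correction, where *Ccne2* was at -0.53 and *Pola1* at -0.38, not called.

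In *Baf180* KD cells the responses to both metals differed from those of scr. With Zn the difference was positive for 18 genes and negative for 3, *Pola1*, *Pole2* and *Ccne2* (28.7% of 16524 genes called, 16.1% higher, 12.6% lower), with a median of 0.30 (0.09 over all genes), and 14 and 5 with RLE size factors, which moved the median of all genes to 0.01. With Cu it was positive for 14 and negative for 2, *Pola1* and *Ccne2* (12.8% called, 5.39% higher, 7.41% lower), with a median of 0.38. *Mcm5* differed by 0.79 (SE 0.15, adjusted p = 0.00135) with Zn and 0.62 (SE 0.15, adjusted p = 0.0138) with Cu, and *Fen1* by 0.76 (SE 0.13, adjusted p = 0.000991) and 0.62 (SE 0.13, adjusted p = 0.00976). The count with Cu was 1 (*Ccne2*) after the GC and length correction, 0 without replicate 1 of *Baf180* KD with Cu or replicate 2 of untreated *Baf180* KD or untreated scr, and 2 without replicate 2 of scr with Cu. That with Zn was 11 after the correction (8 shared), 11 without replicate 2 of untreated scr, 12 without replicate 1 of *Baf180* KD with Zn and 13 without replicate 2 of untreated *Baf180* KD.

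In *Brd9* KD cells 3 genes had a higher response to Zn than in scr cells (*Pold1*, *Rpa2* and *Fen1*) and 1 a lower response (*Ccne2*), with 11.1% of all genes called (5.86% higher, 5.25% lower) and a split of 2 and 2 with RLE size factors. The count was 0 after the GC and length correction, 0 without replicate 2 of untreated scr or *Brd9* KD, replicate 1 of *Brd9* KD with Zn or either library of scr with Zn, 2 without replicate 1 of untreated *Brd9* KD, and 7 to 9 without replicate 1 of untreated scr, replicate 2 of *Brd9* KD with Zn or the shallow library. For Cu no gene passed in *Baf250a* KD cells (edgeR, 1 at an unadjusted p under 0.05, 0 by DESeq2, 0.0121% of all genes called) or in *Brd9* KD cells (21 at an unadjusted p under 0.05, 0 by DESeq2, 0.0363% called), with medians of 0.19 and 0.30. All 6 of these contrasts use the untreated scr libraries.

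The KD lines were further compared with scr cells that had received the same metal, a comparison added after the values were seen. It was not repeated with the GC and length correction. With Zn, the slopes against GC content (log2 per 10 percentage points) were -0.25 and -0.34 in scr. They were 0.23 and 0 in *Baf180* KD, 0.14 and 0.28 in *Baf250a* KD and -0.01 and -0.21 in *Brd9* KD cells. The part of GC content in these differences was not tested. With Cu in both, 25 of 43 genes were lower and 1 (*Orc6*) higher in *Baf250a* KD cells (41.2% of 14495 genes called, 20.0% lower), with a median of -0.42. With Zn in both, 16 were lower and 14 higher (57.5% of 14435 genes called, 28.1% lower, 29.4% higher), with a median of 0.10. Without the shallow library, which leaves 1 library against 2 and takes it to vary like the scr pair, 16 were lower and 17 higher (60.3% of 15969 genes called), with a median of 0.10. *Mcm2* was at -0.28 with Cu and 0.41 with Zn, *Chaf1a* at -0.43 and 0.67, and *Ccne1* at -1.32 and -0.69. Of the lower genes with Zn, *Ccne2* (-1.33), *Pola1* (-0.74) and *Ccne1* had the largest differences. Without the shallow library *Mcm2* was at 0.39, *Chaf1a* at 0.75, *Ccne1* at -0.69, *Ccne2* at -1.31 and *Pola1* at -0.71 with Zn.

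In *Baf180* KD cells the same comparison gave 4 higher and 2 lower genes with Cu (24.9% of 15342 genes called) and 15 higher and 8 lower with Zn (49.9% of 15136 called), and in *Brd9* KD cells 6 higher and 1 lower with Cu (12.2% of 14958 called) and 10 higher and 3 lower with Zn (23.2% of 15002 called). *Gins3* was lower in all 3 lines with either metal, from -0.37 to -0.91, and passed the test in all 6. *Ccne1* was lower in all 6 as well and passed in 5, the exception being *Brd9* KD with Cu (-0.21). *Cdt1* and *Tk1* were higher in *Baf180* KD (0.49 and 0.50 with Cu) and *Brd9* KD cells (0.45 and 0.50 with Cu). *Ccne2*, higher in all 3 lines without metal, was lower in all 3 with Zn in both (-1.31, -1.33 and -0.60). These *Ccne2* values were not corrected for GC content, which is the lowest of the listed genes in *Ccne2* (36.3%).

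Over the 12 conditions most of the 43 genes followed a common course. Against the mean standardized log2 CPM of the list, 31 genes had a Pearson r above 0.8 and 36 above 0.5, led by *Cdc6* (0.966), *Uhrf1* (0.965) and *Chaf1b* (0.960). *Orc6* (-0.182) and *Ccne2* (-0.089) were below 0, and *Slbp* (0.113) and *Pola1* (0.138) were near it. Each gene is itself part of the mean, and the conditions share cell lines and library depth, so these are descriptions over 12 points. The share of all genes above these values of r is not given here. Genes outside the list, among them *Kpnb1* (0.977) and *Snrpa* (0.974), had a higher r than any member. *Mcm4*, *Pole2* and *Pcna*, which fell little or were not called in *Baf250a* KD cells, had an r of 0.850, 0.747 and 0.761.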

How the data were processed

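Per the labels and the study's methods, rRNA was removed from total RNA with RNase H and strand-specific libraries were sequenced. The authors aligned reads with STAR to mm10, kept uniquely mapped reads and deposited raw counts of read pairs per gene from featureCounts, which can lower genes with near-identical copies. The gene annotation is not given in the sources used here. The deposited tables of the authors' own comparisons (DESeq2 fold changes and p-values) were not used.

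Counts were tested with edgeR 4.0.16 (R 4.3.3): filterByExpr, TMM normalization, the quasi-likelihood test and Benjamini-Hochberg adjustment over all genes tested, with an adjusted p under 0.05 called and no fold minimum. KD comparisons used 4 libraries, metal responses the 6 of a line, and differences of responses all 24. CPM used TMM-scaled library totals of the genes that passed the filter. Alternatives were DESeq2 1.42.0, RLE size factors, no filter, a replicate block, a spline correction (5 degrees of freedom) for GC content and length, thinning to 495778 counts, other sets of libraries and leaving out each library. Replicates of every condition differed by more than sampling noise. Scripts were tested on simulated data. Values in every library are given for the highest member of each role and the leading changed members of each comparison, and further members were named from the list. The 43 genes and the other lists were chosen with earlier results of these data known.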

Additional observations from a re-analysis of the deposited data

Results flagged for a closer look

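The responses of 4 line and metal pairs differed from those of scr cells by a test of the difference itself. For Zn in *Baf250a* KD cells 29 of the 43 genes differed, 27 with the higher response in the KD line. For Zn in *Baf180* KD cells 21 differed, 18 higher and 3 lower, and for Cu in the same line 16 differed, 14 higher and 2 lower. For Zn in *Brd9* KD cells 4 differed, 3 higher and 1 lower. Of all 16524 genes, 30.5%, 28.7%, 12.8% and 11.1% were called in these 4 contrasts, in the same order. The share of the 43 genes was thus below that of all genes for Zn in *Brd9* KD cells. After the GC and length correction the 4 counts were 30, 11, 1 and 0. *Ccne2* was lower in all 4, at -2.24, -2.41, -1.64 and -1.98 on the log2 scale. After the GC and length correction these values were -0.53, -1.14, -1.03 and -0.998, called in *Baf180* KD cells and not in the other two. The *Brd9* KD call held in 4 of 9 fits with a library left out. The untreated scr libraries enter all 4 contrasts.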

How the results depend on the processing

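The number of replication genes called stayed within 1.5 times the main count under 105 of 143 other processing settings and 77 of 110 fits with a library left out, and the single-gene values kept their direction and call in 774 of 1008 and 537 of 730. The median over the 43 genes moved by more than the spread between replicates in 21 of 143 settings, 20 of 110 fits with a library left out and 7 of 7 comparisons added later, where 37 of 94 single-gene values also turned sign. Of the named genes called in untreated KD cells, these kept the call in at most 50% of the alternatives: *Chaf1b* (5 of 10), *E2f1* (5 of 10), *Orc6* (5 of 10), *Slbp* (3 of 10) in *Baf180* KD, *Ccne2* (5 of 10), *Pcna* (3 of 11), *Pola1* (4 of 11) in *Baf250a* KD, *Rpa2* (3 of 10) in *Brd9* KD. Among the planned settings and the left-out libraries the single-gene call was lost in 219 and 190 and the sign turned in 15 and 3. Thinning tests fewer counts by construction, and for the other alternatives the cause was not tested. With every library thinned to the smallest total the number of replication genes called was 1 (*Baf180* KD against scr), 14 (*Baf250a* KD against scr), 0 (*Brd9* KD against scr), 5 (*Baf250a* KD against *Baf180* KD), 14 (*Baf250a* KD against *Brd9* KD), 0 (*Baf180* KD against *Brd9* KD), 4 (Zn in scr cells), 1 (Cu in *Baf180* KD cells), 0 (Zn in *Baf250a* KD cells), 0 (Cu response of *Baf180* KD relative to scr), 5 (Zn response of *Baf180* KD relative to scr), 8 (Zn response of *Baf250a* KD relative to scr), 0 (Zn response of *Brd9* KD relative to scr). With every library thinned to the smallest total the log2 fold change reversed for *Cdc6* 0.43 (*Baf250a* KD against scr) and for *Rpa2* 0.011 (*Baf250a* KD against *Brd9* KD) and for *Cdc6* -0.033 (Zn in *Baf250a* KD cells) and for *E2f1* -0.31, *Cdc6* -0.52, *Cdt1* -0.16 (Zn response of *Baf180* KD relative to scr) and for *Mcm10* -0.038, *Gins3* -0.32, *Cdc6* -0.70, *Cdt1* -0.097 (Zn response of *Baf250a* KD relative to scr). With Cu in both lines the number of replication genes called was 6 (*Baf180* KD against scr). With Cu in both lines the log2 fold change reversed for *Ccne2* -0.48, *Pola1* -0.11, *Gins2* 0.13, *Chaf1b* 0.17 (*Baf180* KD against scr) and for *Pola1* -0.026 (*Baf250a* KD against scr) and for *Rpa2* 0.091 (*Brd9* KD against scr). With 12 libraries and treatment as a term the number of replication genes called was 24 (*Baf250a* KD against scr), 21 (*Brd9* KD against scr). With 12 libraries and treatment as a term the log2 fold change reversed for *Ccne2* -0.25 (*Baf180* KD against scr) and for *Pola1* -0.062 (*Baf250a* KD against scr). After the GC content and length correction the number of replication genes called was 11 (*Baf180* KD against *Brd9* KD), 0 (Zn in scr cells), 5 (Cu in *Baf180* KD cells), 1 (Cu response of *Baf180* KD relative to scr), 11 (Zn response of *Baf180* KD relative to scr), 0 (Zn response of *Brd9* KD relative to scr). After the GC content and length correction the log2 fold change reversed for *Pola1* -0.060 (*Baf250a* KD against scr) and for *E2f1* -0.037, *Cdt1* -0.029 (Zn response of *Baf180* KD relative to scr). With no filter on low counts the number of replication genes called was 2 (Cu in scr cells), 5 (Zn in *Baf180* KD cells), 3 (Cu in *Brd9* KD cells), 1 (Cu response of *Baf250a* KD relative to scr), 2 (Cu response of *Brd9* KD relative to scr), 2 (Zn response of *Brd9* KD relative to scr). With all 24 libraries in the fit the number of replication genes called was 17 (Zn in scr cells). With DESeq2 the number of replication genes called was 1 (Zn in *Baf180* KD cells), 11 (Zn in *Baf250a* KD cells), 8 (Zn response of *Brd9* KD relative to scr). With the 12 libraries of the KD line and scr the number of replication genes called was 1 (Zn response of *Brd9* KD relative to scr). With Zn in both lines the log2 fold change reversed for *Ccne2* -1.31, *Pola1* -0.36, *Gins2* 0.32, *Chaf1b* 0.12 (*Baf180* KD against scr) and for *Mcm2* 0.41, *Pcna* 0.17, *Uhrf1* 0.32, *E2f1* 0.30, *Ccne2* -1.33, *Pola1* -0.74, *Rpa2* 0.12, *Gins2* 0.22, *Chaf1a* 0.67, *Tk1* 0.23, *Gins4* 0.62, *Cdc6* 0.10 (*Baf250a* KD against scr) and for *Ccne2* -0.60, *Pola1* -0.12, *Rpa2* 0.13 (*Brd9* KD against scr). With Zn in both lines and no shallow library the log2 fold change reversed for *Mcm2* 0.39, *Pcna* 0.18, *Uhrf1* 0.35, *E2f1* 0.29, *Ccne2* -1.31, *Pola1* -0.71, *Rpa2* 0.13, *Gins2* 0.24, *Chaf1a* 0.75, *Tk1* 0.20, *Gins4* 0.59, *Cdc6* 0.10 (*Baf250a* KD against scr). With a library left out the counts ranged over 0 to 20 (Cu response of *Baf180* KD relative to scr), 11 to 23 (Zn response of *Baf180* KD relative to scr), 8 to 29 (Zn response of *Baf250a* KD relative to scr), 0 to 2 (Cu response of *Brd9* KD relative to scr), 0 to 9 (Zn response of *Brd9* KD relative to scr), 5 to 27 (*Baf180* KD against scr), 30 to 38 (*Baf250a* KD against scr), 1 to 14 (*Brd9* KD against scr), 3 to 5 (*Baf180* against *Brd9* KD), 28 to 33 (*Baf250a* against *Baf180* KD), 35 to 37 (*Baf250a* against *Brd9* KD), 0 to 14 (Cu in *Baf180* KD), 2 to 34 (Zn in *Baf250a* KD), 0 to 1 (Cu in scr), 0 to 7 (Zn in scr), and were 0 throughout for the other 5 responses tested. Without replicate 1 of *Baf250a* KD with Zn, which leaves the library of 495778 counts, the Zn response reversed for 3 genes, whose range over all fits with a library left out was *Chaf1a* (-0.20 to 1.00), *Gins2* (-0.027 to 0.69), *Rpa2* (-0.058 to 0.51). A group of 1 library was taken to vary like the others. The comparisons with Cu or Zn in both lines and the fits without the shallow library where it is in neither group were chosen after seeing the data.

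Replicate numbers were shared by all groups, but nothing ties them to a common culture or day. The correlation between the deviations of libraries with a shared number was -0.18 to 0.28 over all pairs of groups compared, so the numbers were not taken as pairs. Within *Baf180* KD cells the 3 correlations were 0.13 to 0.25, and there the block changed the counts with both metals. With the replicate number as a block the number of replication genes called was 8 (*Baf180* KD against scr), 23 (*Baf180* KD against *Brd9* KD), 0 (Zn in scr cells), 23 (Cu in *Baf180* KD cells), 8 (Zn in *Baf180* KD cells), 7 (Zn response of *Brd9* KD relative to scr), and within 1.5 times the main count elsewhere.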

Other observations

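Outside the 43 genes and the other lists, the genes whose log2 CPM over the 12 condition means was most like the mean of the 43 were *H1f5* (Pearson r = 0.986), *Cks1b* (0.981), *H2bc18* (0.980), *Tubb5* (0.980) and *H4c4* (0.979). *H1f5*, *H2bc18* and *H4c4* encode histones, *Cks1b* a cyclin-dependent kinase subunit and *Tubb5* a tubulin. The 12 conditions share cell lines and library depth, and the values are descriptions.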
